A study of Mus musculus with 12 samples.

Results

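The response to lipopolysaccharide (LPS) of mouse macrophages that lack both p50 and interleukin 10 (IL-10) was measured on 4 of the 12 arrays of a series. The members were the 2 arrays titled p50/IL10 LPS and the 2 titled p50/IL10 unstimulated, and the response of a gene is the mean of the first pair minus the mean of the second, on the log2 scale. It is described over 12393 genes, each represented by the probe set of its own symbol that had the highest mean over the 12 arrays. The cells were bone marrow-derived macrophages of the genotype p50-/-IL10-/- on the 129-SvEv-Tac strain. The marrow was grown for 5 days in medium with 10% serum and 30% L-cell supernatant, which supplies the growth factor M-CSF, and the cells were replated the night before the stimulus. They were left without stimulus or given 1 ng/ml of LPS, and RNA was harvested 4 h later. The other arrays hold IL10-/- cells of the same strain under the same treatments, and cells of both genotypes given LPS with 0.3 ng/ml of IL-10. Every group has 2 arrays and every group lacks Il10, so no cells with an intact Il10 gene enter any comparison. The labels call the arrays of a group biological replicates, but the sources used here give neither the age of the mice nor whether each array had its own mouse. The p-values thus reflect how far these arrays spread, which may be technical.

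LPS is a component of the outer membrane of Gram-negative bacteria that macrophages sense through Toll-like receptor 4 (TLR4). The receptor signals through the adaptors MyD88 and TRIF to NF-kB, MAP kinases and interferon regulatory factors, and interferon beta made in this way acts back on the cells to induce interferon-stimulated genes. Nfkb1 encodes p105 and its product p50. The p50 subunit pairs with RelA or c-Rel on DNA or binds as a homodimer that cannot activate transcription by itself, while p105 holds back NF-kB subunits and the kinase Tpl2. IL-10 made by LPS-treated macrophages normally restrains the response, a feedback that cells without Il10 do not have. Because 1 gene gives both proteins, loss of p50 and loss of p105 cannot be told apart here.

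Nfkb1 was not analysed here, so the absence of p50 rests on the labels. Il10 (gene ID 16153) read 6.94 and 6.54 log2 on the unstimulated arrays and 9.11 and 8.86 on the LPS arrays. The files do not place its probes inside or outside the deletion, so this signal checks nothing about the knockout. Array medians over the series lay between 6.92 and 6.96 log2. A change in the total RNA of a cell cannot be seen in values scaled in this way, and fewer cells of a type and less RNA per cell cannot be told apart. Macrophage markers were bright: 14 were measured and their mean level was 11.80 and 11.69 log2 on the unstimulated arrays and 11.80 and 11.72 on the LPS arrays. Of the 14, 3 were called higher (21.4%, beside 10.3% of all genes), among them Spi1 and Cd14. Called lower were 0, beside 22.1% of all genes, and 1 with the 4 p50-/-IL10-/- arrays fitted alone. When the test asked for a change beyond 1.2-fold, 1 was called higher. The list median was -0.05 log2. Mertk, described below, read lower with LPS and was not called. Csf1r, the growth factor receptor of the lineage, read 13.65 and 13.53 without stimulus and 13.48 and 13.45 with LPS. Of 7 lists with 83 measured markers of other cells, 5 markers were called higher and 3 lower. The higher ones numbered 2 without unstimulated array 1 or LPS array 1 and 3 without LPS array 2, and the lower ones 1 without unstimulated array 2 or LPS array 1. The mean levels of these lists per array lay between 5.53 and 7.03 log2, except for neutrophil markers at 7.65 and 7.65 without stimulus and 7.76 and 7.80 with LPS. The marker that changed most was Blnk, a B cell adaptor that read 11.48 and 11.81 without stimulus and 10.22 and 10.60 with LPS and fell by 1.24 ± 0.15 log2. The part of other cells in the results was not tested.

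LPS changed the level of 4012 of the 12393 genes without p50, which is 32.4% of those tested. Of these, 1273 genes (10.3%) rose and 2739 (22.1%) fell. Large changes were more often increases: 451 genes (3.64%) rose at least 2-fold, 144 at least 4-fold and 48 at least 8-fold, against 366 (2.95%), 46 and 4 for decreases. The median called increase was 0.73 log2 and the median called decrease was -0.52 log2, beside a median of -0.01 over all genes. A gene counts as called at a Benjamini-Hochberg adjusted p under 0.05 in limma, fitted over all 12 arrays, and values are differences of means ± the standard error (SE) of that fit, with n = 2 arrays in each group. With 2 arrays on each side the smallest exact permutation p is 0.333, so the calls rest on the spread shared over groups and genes. The arrays of the groups did not overlap for any called gene, nor for 65.8% of all genes. When the test asked for a change beyond 1.2-fold, 714 genes were called higher and 1114 lower. Without unstimulated array 2 the lower genes numbered 1809. Levels under 5.60 log2, the highest lower quartile among the arrays, are called dim below, and the size of a change that starts or ends there is uncertain. For 3192 genes the probe set has a name that marks probes shared with other transcripts, so that it can take signal from related genes; Cd40, Socs1, Iigp1, Nfkbie, Enc1, Eno2 and Med21 are among those described below. Of the called genes named here, 50 have further probe sets with that symbol. For 35 of them all these were called in the same direction, for 6 some and for 9 none, by limma over all probe sets. The genes without a further call are Ier5, Il6ra, Il6st, Mnt, Pfkl, Ptgs2, Rxra, Vegfa and Zfp36l2, and those with calls for some are Flcn, Gja1, Il4ra, Skp2, Tap1 and Tsc22d3.

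**Figure D1:**
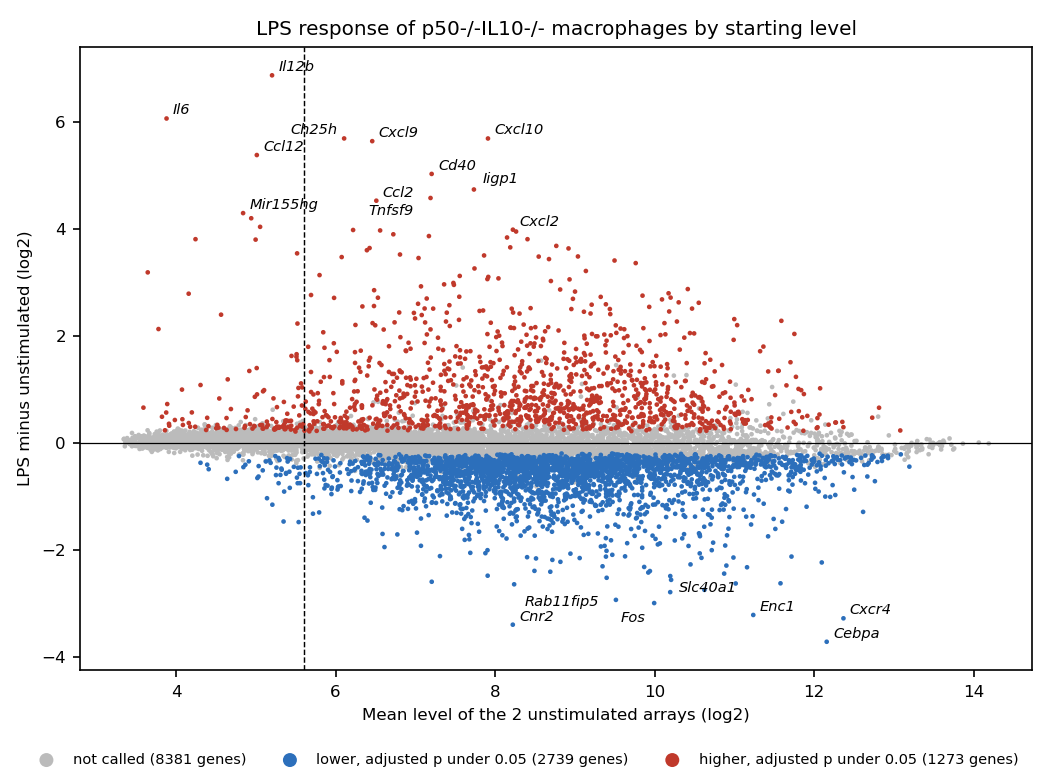
LPS response (log2 difference, vertical axis) against the mean level of the 2 unstimulated arrays (log2, horizontal axis) for the 12393 genes of p50-/-IL10-/- macrophages; each point is a gene and the dashed line marks the dim limit of 5.60 log2. The 1273 called increases reach 6.87 log2 and the 2739 called decreases reach that of Cebpa at -3.72, and the median called decrease of -0.52 is smaller in size than the median increase of 0.73.

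Chemokine genes were prominent among the largest increases. Cxcl10 (gene ID 15945), a chemokine that draws T cells and is induced by interferon, read 8.22 and 7.60 log2 on the unstimulated arrays and 13.61 and 13.58 on the LPS arrays. Both LPS arrays lay far above both unstimulated ones and close together, and the gene rose 51.5-fold, by 5.69 ± 0.36 log2 (limma adjusted p 1.31e-06). Cxcl9, which binds the same receptor, went from 6.50 and 6.42 to 12.33 and 11.86 log2, a rise of 5.64 ± 0.44. Ccl2, which attracts monocytes, read 6.31 and 6.71 without stimulus and 11.19 and 10.87 with LPS, and rose by 4.52 ± 0.17. The neutrophil attractants Cxcl1 and Cxcl2 rose by similar amounts. Cxcl1 read 6.52 and 5.92 without stimulus and 9.83 and 10.56 with LPS, a rise of 3.97 ± 0.26. Cxcl2 read 8.20 and 8.24 without stimulus and 12.04 and 12.37 with LPS, a rise of 3.98 ± 0.11. Ccl12, another monocyte attractant, rose by 5.38 ± 0.52 from a dim 5.10 and 4.92 log2 to 10.99 and 9.78. Ccl4, an inflammatory chemokine, rose by 3.95 ± 0.28, and its relative Ccl3 by 3.10 ± 0.21. Of the 23 measured chemokines, 15 rose, 2 fell and 6 were not called, with a median of 1.33 log2. The higher ones make 65.2% of the list and the lower ones 8.7%, beside 10.3% and 22.1% of all genes. Cxcl12, which holds cells in the marrow, was not called at -0.05 ± 0.11 log2, nor were Ccl22 at 0.19 ± 0.08 and Ccl17 at 0.16 ± 0.11. The number of lower chemokines was 1 without unstimulated array 1, unstimulated array 2 or LPS array 2, and 0 without LPS array 1.

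The 250 bases before the start are printed for 5 strongly raised genes, and these were chosen because they hold matches to the letters that NF-kB or interferon-activated factors are known to bind; a match describes letters and is not a site of binding. They are from RefSeq on GRCm38.p6, 5′ to 3′ on the strand of the gene. Capitals mark a kB match, the 10-letter consensus of NF-kB, or a match to the interferon-stimulated response element (ISRE) in its 10-letter form, searched on both strands. Cxcl2 lies at chr5:90903649-90903898 and Cxcl1 at chr5:90890995-90891244, both on the plus strand, Cxcl10 at chr5:92348890-92349139 on the minus strand, Il6 at chr5:30012864-30013113 on the plus strand and Socs1 at chr16:10785537-10785786 on the minus strand.
Cxcl2: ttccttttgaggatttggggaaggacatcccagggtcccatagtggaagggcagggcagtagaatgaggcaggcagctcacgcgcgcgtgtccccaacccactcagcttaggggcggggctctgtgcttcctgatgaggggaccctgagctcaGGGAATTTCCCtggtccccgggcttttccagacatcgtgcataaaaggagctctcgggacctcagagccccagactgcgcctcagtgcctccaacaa
Cxcl1: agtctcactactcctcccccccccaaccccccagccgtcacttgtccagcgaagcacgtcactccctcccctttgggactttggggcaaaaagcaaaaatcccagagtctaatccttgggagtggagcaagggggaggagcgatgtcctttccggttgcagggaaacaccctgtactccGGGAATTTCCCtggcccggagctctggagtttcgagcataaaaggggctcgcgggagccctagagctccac
Cxcl10: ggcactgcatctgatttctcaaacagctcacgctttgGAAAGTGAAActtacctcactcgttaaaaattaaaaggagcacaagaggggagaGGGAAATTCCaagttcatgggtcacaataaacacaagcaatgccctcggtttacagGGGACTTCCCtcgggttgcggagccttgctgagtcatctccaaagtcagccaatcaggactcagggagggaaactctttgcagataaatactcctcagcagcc
Il6: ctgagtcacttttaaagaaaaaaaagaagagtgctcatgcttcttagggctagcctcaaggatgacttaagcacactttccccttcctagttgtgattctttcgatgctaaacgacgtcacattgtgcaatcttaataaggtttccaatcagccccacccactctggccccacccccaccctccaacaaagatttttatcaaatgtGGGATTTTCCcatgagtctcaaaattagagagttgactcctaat
Socs1: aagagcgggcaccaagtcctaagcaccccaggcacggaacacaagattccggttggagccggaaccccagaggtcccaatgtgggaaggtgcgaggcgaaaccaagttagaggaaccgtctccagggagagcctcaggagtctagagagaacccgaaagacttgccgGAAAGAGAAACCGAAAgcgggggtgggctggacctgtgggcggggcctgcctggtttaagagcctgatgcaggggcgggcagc
Cxcl2 and Cxcl1 share the same 11 capital letters, which hold 2 overlapping kB matches, and they stand 97 to 87 bases before the start of Cxcl2 and 71 to 61 before that of Cxcl1. Cxcl10 holds 2 separate kB matches, at 159 to 150 and 103 to 94 bases, and 1 ISRE match at 213 to 204. Il6 holds 1 kB match at 44 to 35 bases, and Socs1 holds 2 ISRE matches that overlap at 83 to 68 bases and no kB match. Other raised genes with a match are not printed, among them Oasl1, with 1 kB match at 14 to 5 bases and no ISRE match. The 5 printed genes are not typical of the strongest responders. Of the 12 named genes with the largest increases, 8 had a promoter in the table, and of these only Il6 and Cxcl10 held a kB or ISRE match, while Il12b, Cxcl9, Ccl12, Ch25h, Gfi1 and Mir155hg, 6 in all, held neither. Over the promoters of genes raised at least 2-fold, taken as the 250 bases before and the 50 after the start, 9.38% of 501 held a kB match (exact 95% interval 6.97 to 12.3%), beside 4.51% of all 32851 promoters in the table and 4.37% of 389 for genes lowered at least 2-fold (2.57 to 6.91%). For the ISRE the shares were 8.78% (6.45 to 11.6%), 3.44% and 1.80% (0.726 to 3.67%). With the 250 bases before the start alone, the kB shares were 8.78% for raised genes, 3.9% for all and 4.37% for lowered genes, and the ISRE shares 6.99%, 2.98% and 1.54%. Over 5 motifs and 4 sets of promoters, 5 of 20 shares left their interval with this shorter window, all of them shares over all promoters. The table held promoters for 372 of the 451 raised and 296 of the 366 lowered genes. Its promoters belong to 27025 genes, while 9887 of the 12393 measured genes had a promoter there. The shares of all promoters thus take in many genes that were not measured. Shares over the measured genes alone were not computed. The AP-1 letters TGANTCA were in 9.38% of promoters of raised genes, 4.11% of those of lowered genes and 7.81% of all. The C/EBP letters TTGCNNAA were in 9.58%, 9.25% and 10.8%. These shares describe letters in a window and carry no test. Some genes have more than 1 promoter, and the intervals treat these as independent, so they may be too narrow.

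Cytokine genes rose with the chemokines. Il12b (gene ID 16160), the p40 chain shared by IL-12 and IL-23, had the largest called increase of the 12393 genes. It read 4.81 and 5.59 log2 on the unstimulated arrays and 12.25 and 11.88 on the LPS arrays, so it passed from the dim range to a bright level, and rose by 6.87 ± 0.21 log2 (limma adjusted p 1.74e-08). Il6 (gene ID 16193), a cytokine that drives the acute phase response, read 3.96 and 3.80 without stimulus and 10.11 and 9.76 with LPS, a rise of 6.06 ± 0.33 log2 (limma adjusted p 4.94e-07). Both started dim. Tnf, a central inflammatory cytokine, started at 8.86 and 9.21 log2 and reached 12.50 and 12.54, a rise of 3.48 ± 0.11. The interleukin 1 genes rose together, Il1b by 3.65 ± 0.26 and Il1a by 3.60 ± 0.19, and the antagonist of their receptor, Il1rn, by 1.29 ± 0.16. Il15, a survival cytokine for NK and memory T cells, rose by 3.83 ± 0.12. Tnfsf9, a co-stimulatory ligand for T cells, rose by 4.57 ± 0.17. Ifnb1, the interferon that links TLR4 to interferon-stimulated genes, read 5.77 and 5.92 without stimulus and 8.14 and 7.68 with LPS, a rise of 2.06 ± 0.18. In the list of 29 interleukins, TNF family members and interferons, 16 rose, 1 fell and 12 were not called, with a median of 1.11 log2. Thus 55.2% were called higher and 3.45% lower, beside 10.3% and 22.1% of all genes. The lower gene was the vascular growth factor Vegfa, which fell by 1.65 ± 0.15, while its other probe set read -0.24 and was not called, and without unstimulated array 2 there were 2 lower genes. Il23a, the partner of Il12b in IL-23, read 0.08 ± 0.08, and the colony-stimulating factor Csf3 read 0.08 ± 0.08 log2, neither of them called.

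**Figure D2:**
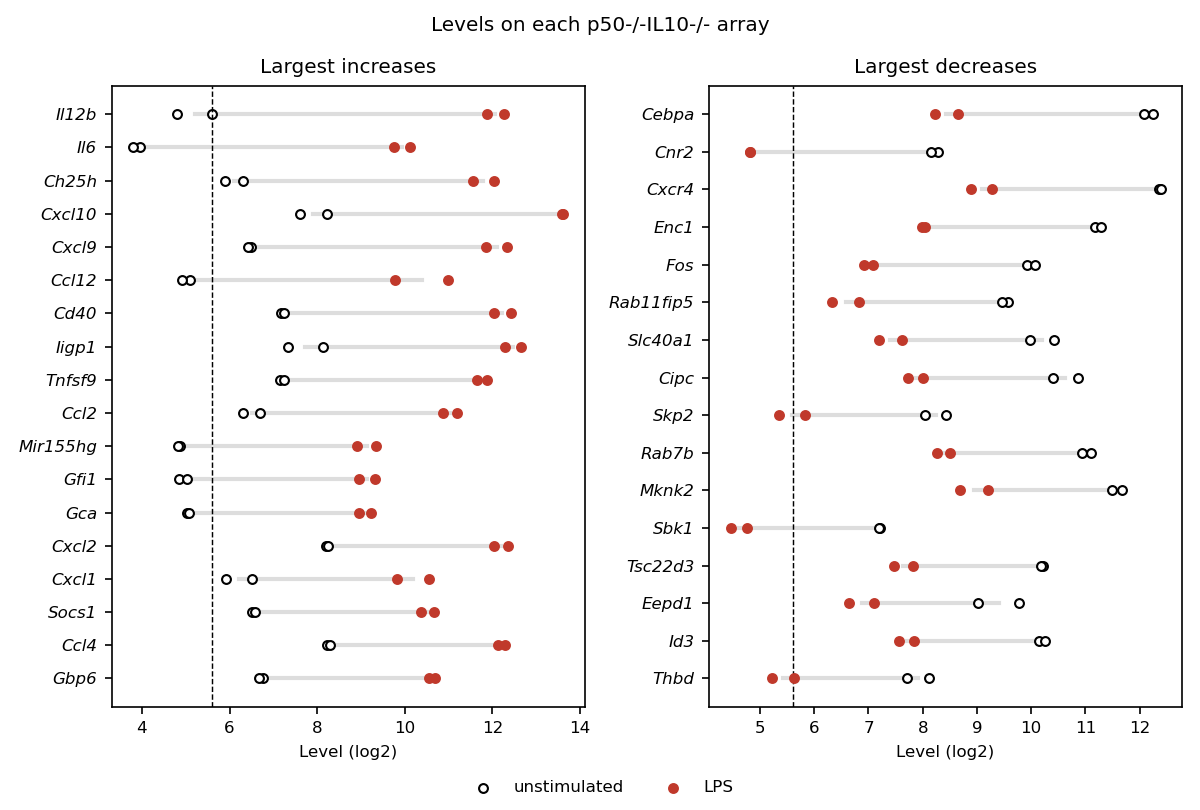
Levels (log2, horizontal axis) of the genes with the largest called increases (left, 18 genes) and decreases (right, 16 genes) in p50-/-IL10-/- macrophages; open points are the 2 unstimulated arrays, red points the 2 LPS arrays, grey lines join the group means and the dashed line is the dim limit of 5.60 log2. Only genes whose groups did not overlap were eligible, and Il12b, Il6, Ccl12, Mir155hg, Gfi1 and Gca start from a dim mean.

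Genes of the NF-kB pathway rose at the level of subunits, inhibitors and adaptors. Of 26 measured genes, 21 rose, 2 fell and 3 were not called, with a median of 1.24 log2. Called higher were 80.8% and lower 7.69%, beside 10.3% and 22.1% of all genes. The count of 21 was the same with any 1 of the 4 arrays left out, and the lower genes numbered 1 without unstimulated array 2 or LPS array 1. Nfkbie, which encodes the inhibitor IkB epsilon, read 6.97 and 6.65 log2 without stimulus and 10.36 and 10.29 with LPS, a rise of 3.52 ± 0.13 (limma adjusted p 4.39e-08). Nfkbia, the classical early inhibitor, was already bright at 12.82 and 12.81 log2 and rose by 0.65 ± 0.07, and its 3 other probe sets were called higher by 1.51 to 1.75. The nuclear inhibitor Nfkbiz rose by 2.50 ± 0.22. The enzyme A20, encoded by Tnfaip3, which shuts the pathway down, rose by 2.47 ± 0.17 log2. Among the DNA-binding subunits, Rel read 6.56 and 6.65 without stimulus and 8.93 and 8.50 with LPS, a rise of 2.11 ± 0.17. Relb rose by 1.67 ± 0.10, Nfkb2 by 1.53 ± 0.09 and Rela by 0.62 ± 0.07. The other probe set of Nfkb2 was called higher by 0.43. The adaptor Traf1 rose by 3.47 ± 0.12, and Map3k8, which encodes the Tpl2 kinase held by p105, by 1.42 ± 0.20. Bcl3, a partner of p50 homodimers, was measured at 0.23 ± 0.15 log2 and not called. A kB match stood in 34.4% of 32 promoters of 22 genes of this list (exact 95% interval 18.6 to 53.2%). The share was 4.51% of all promoters in the table, which include those of genes not measured. The intervals treat promoters of the same gene as independent and may be too narrow. The AP-1 letters stood in 28.1% (13.7 to 46.7%), beside 7.81% of all. The ISRE stood in 0 of 32 (0 to 10.9%), an interval that holds the 3.44% of all.

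Among sensors and adaptors of LPS, the receptor and its helpers moved in different directions. Tlr4 itself read 8.88 and 8.76 log2 on the unstimulated arrays and 8.13 and 7.91 on the LPS arrays, and fell by 0.80 ± 0.10. The co-receptor Cd14 rose by 0.47 ± 0.08, and Ly96, which encodes the MD-2 chain that holds LPS, was not called at -0.04 ± 0.07. Tlr3, a sensor of double-stranded RNA, rose by 2.26 ± 0.23, and Tlr1 and Tlr2, which together sense bacterial lipopeptides, by 1.77 ± 0.28 and 1.34 ± 0.08. The adaptor Myd88 rose by 1.49 ± 0.10 and the ubiquitin ligase Peli1 by 2.54 ± 0.12. The list of 25 held 10 genes that rose, 3 that fell and 12 that were not called, with a median of 0.28 log2. These make 40.0% higher and 12.0% lower, beside 10.3% and 22.1% of all genes. The lower genes numbered 2 without unstimulated array 2 or LPS array 1.

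Interferon-stimulated antiviral genes were raised in most members. Of 42 measured, 29 rose, 13 were not called and 0 fell by limma at either an adjusted or an unadjusted p under 0.05, with a median of 1.87 log2. The 29 higher genes make 69.0% of the list, while of all genes 10.3% were called higher and 22.1% lower. Mx1, a GTPase that blocks viruses, read 8.71 and 8.10 without stimulus and 12.26 and 12.16 with LPS, a rise of 3.80 ± 0.77 (limma adjusted p 0.0031). Mx2 rose by 3.50 ± 0.23, Ifit1 by 3.36 ± 0.48, Oasl1 by 3.68 ± 0.58 and Cmpk2, an enzyme of nucleotide metabolism, by 3.63 ± 0.41. The transcription factor Irf1 rose by 2.51 ± 0.07 and the sensor of viral RNA Ifih1 by 2.75 ± 0.24. Some of these SE values take in a wide spread in the other genotype, since all groups share them: Ifit1 read 9.34 and 7.73 log2 on the unstimulated IL10-/- arrays and 10.00 and 9.53 on the unstimulated p50-/-IL10-/- arrays. With the 4 p50-/-IL10-/- arrays fitted alone, 38 of the 42 rose. Among the 13 not called in the fit of all arrays, Oas1a read 11.74 and 11.74 without stimulus and 12.57 and 12.44 with LPS, a difference of 0.77 ± 0.54. Irf7, a factor that drives interferon production, differed by 0.54 ± 0.73. All 10 measured guanylate-binding proteins and immunity-related GTPases, which attack the vacuoles of intracellular microbes, rose, with a median of 2.64 log2. Iigp1 read 8.14 and 7.32 without stimulus and 12.64 and 12.29 with LPS, a rise of 4.73 ± 0.85, Gbp6 rose by 3.89 ± 0.55 and Gbp2b by 2.23 ± 0.21. Members of these families resemble each other, and probes of 1 may take signal from another.

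**Figure D3:**
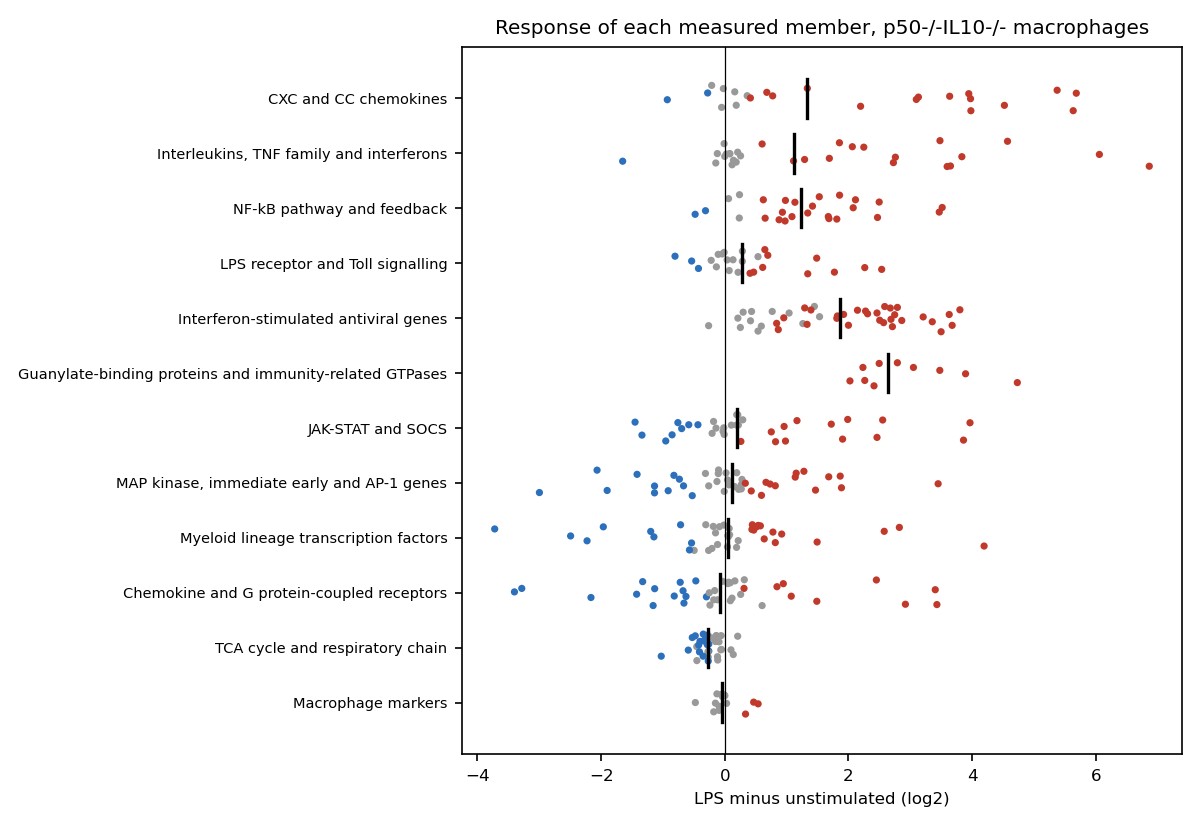
LPS response (log2, horizontal axis) of each measured member of 12 gene lists (rows) in p50-/-IL10-/- macrophages; red points were called higher, blue points lower and grey points not called, and black bars are list medians. The medians of the chemokine, cytokine, NF-kB, interferon and guanylate-binding protein lists lie between 1.11 and 2.64 log2, and those of the other 7 lists between -0.27 and 0.28.

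The JAK-STAT and SOCS list held raised and lowered genes. Socs1, which blocks interferon signalling, read 6.52 and 6.59 log2 without stimulus and 10.68 and 10.37 with LPS, a rise of 3.97 ± 0.38 (limma adjusted p 1.87e-05). Socs3, which blocks signalling by receptors of the IL-6 family, read 7.08 and 7.25 without stimulus and 11.06 and 11.01 with LPS, a rise of 3.86 ± 0.08. The kinase Jak2 rose by 1.99 ± 0.08, Pim1 by 1.91 ± 0.14 and Il15ra, which presents IL-15, by 2.55 ± 0.22. The receptor chain genes Il6ra, Il4ra and Il6st were called lower on 1 probe set each, and their other probe sets differed. Il6ra fell by 1.45 ± 0.15, and its other probe set read -0.02 and was not called. Il4ra fell by 0.95 ± 0.13, and of its 2 other probe sets, at -0.58 and -0.19, 1 was called. Il6st fell by 0.85 ± 0.10, and its 2 others read -0.10 and 0.09 and were not called. Stat6, the factor downstream of IL-4, fell by 0.70 ± 0.07. Stat3 was not called, at 0.22 ± 0.10. Of the 33 genes of this list 13 rose, 8 fell and 12 were not called, with a median of 0.19 log2. The 8 lower genes were as many with any 1 of the 4 arrays left out. They make 24.2% of the list, near the 22.1% of all genes, while the 13 higher genes make 39.4% against 10.3%.

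Immediate early genes and MAP kinase phosphatases held raised and lowered members 4 h after LPS. Fos, a subunit of AP-1, read 9.91 and 10.07 log2 on the unstimulated arrays and 6.91 and 7.08 on the LPS arrays, and fell by 3.00 ± 0.23 (limma adjusted p 4.87e-06). Dusp1, a phosphatase that limits MAP kinase activity and cytokine output, read 9.92 and 10.16 without stimulus and 8.12 and 8.15 with LPS, and fell by 1.90 ± 0.12. Dusp6, a related phosphatase, fell by 2.07 ± 0.13. Other phosphatases of the family went up: Dusp2 rose from 7.12 and 6.96 to 10.62 and 10.36 log2, by 3.45 ± 0.16, and Dusp16 by 1.89 ± 0.09. Among 40 genes of this list 14 rose, 11 fell and 15 were not called, with a median of 0.11 log2, and 8 rose when tested against a 1.2-fold change. Among 17 regulators of mRNA decay and translation, the decay factor Zfp36l1 fell by 2.15 ± 0.19 and its relative Zfp36l2 fell by 2.24 ± 0.13, although its 2 other probe sets read -0.32 and -0.20 and were not called. Pdcd4, a translation inhibitor, fell by 1.78 ± 0.17, and Ppp1r15a, which restores translation after stress, rose by 2.16 ± 0.11. Of these 17 regulators, 35.3% were called higher and 29.4% lower, beside 10.3% and 22.1% of all genes. There 6 rose and 5 fell, and 3 rose without unstimulated array 2 or LPS array 1.

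Myeloid transcription factors included the largest called decrease. Cebpa (gene ID 12606), which drives the formation of granulocytes and monocytes, read 12.07 and 12.24 log2 on the unstimulated arrays and 8.22 and 8.65 on the LPS arrays. Both LPS arrays lay far below both unstimulated ones, and the gene fell by 3.72 ± 0.18 log2 (limma adjusted p 2.49e-07). Gfi1, a repressor that acts in the same lineage, went from a dim 4.85 and 5.03 to 9.32 and 8.95 log2, a rise of 4.19 ± 0.19. Id3, an inhibitor of DNA binding by other factors, fell by 2.49 ± 0.19 and Id1 fell by 2.23 ± 0.25. Ets2 rose by 2.58 ± 0.11, and Spi1, the PU.1 factor that specifies macrophages, rose by 0.54 ± 0.09. Of 39 such factors 14 rose, 9 fell and 16 were not called, with a median of 0.05 log2. Tested against a 1.2-fold change, 8 rose. The 9 lower factors make 23.1% of the list, near the 22.1% of all genes, while the 14 higher make 35.9% against 10.3%. The lower factors numbered 9 with any 1 of the 4 arrays left out.

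The host transcript of the microRNA miR-155, an LPS-induced regulator whose known targets include Socs1, was among the large increases. Mir155hg read 4.86 and 4.81 log2 without stimulus and 9.35 and 8.91 with LPS, a rise of 4.29 ± 0.19 from a dim level. The array reads this host transcript and not the mature microRNA, whose sequence from RefSeq (GRCm38.p6, chr16:84714143-84714165, plus strand) is printed to show the seed, bases 2 to 8, in capitals.
mmu-miR-155-5p: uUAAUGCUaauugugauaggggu

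Among effector enzymes, Ch25h (gene ID 12642), which makes the antiviral oxysterol 25-hydroxycholesterol, read 6.32 and 5.90 without stimulus and 12.03 and 11.55 with LPS, a rise of 5.69 ± 0.38 log2. Ptgs2, the inducible prostaglandin enzyme, rose by 2.78 ± 0.18 from a dim 4.21 and 4.10 log2, and its other probe set read 0.57 and was not called. Ptges, which acts after it, rose by 2.51 ± 0.18. Gch1, which makes the cofactor of nitric oxide synthase, rose by 2.40 ± 0.09, and Nos2, the inducible synthase itself, went from 5.68 and 6.03 to 7.23 and 6.93 log2, a rise of 1.23 ± 0.18. Acod1, which makes itaconate, went from 11.69 and 11.81 to 13.77 and 13.80 log2 and rose by 2.03 ± 0.27. Of 36 genes of this list 15 rose, 4 fell and 17 were not called, with a median of 0.39 log2. Called higher were 41.7% and lower 11.1%, beside 10.3% and 22.1% of all genes. The lower genes numbered 1 without unstimulated array 1, unstimulated array 2 or LPS array 2 and 2 without LPS array 1, when 10 rose.

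Several co-stimulatory molecules had large increases. Cd40 (gene ID 21939), the receptor through which T cells activate macrophages, read 7.17 and 7.24 log2 without stimulus and 12.42 and 12.03 with LPS, a rise of 5.02 ± 0.16 (limma adjusted p 1.74e-08). The adhesion molecule Icam1 rose by 2.62 ± 0.13, the checkpoint ligand Cd274 by 2.59 ± 0.19 and the death receptor Fas by 2.51 ± 0.11. Cd80, a ligand for T cell CD28, was not called at 0.08 ± 0.12, but 1 of its 3 other probe sets, at 0.003 to 0.34, was called higher. In this list of 31, 16 rose, 4 fell and 11 were not called, with a median of 0.38 log2. The shares were 51.6% higher and 12.9% lower, beside 10.3% and 22.1% of all genes. Among 21 genes of MHC presentation 6 rose, 1 fell and 14 were not called, with a median of 0.29 log2. The peptide transporter genes Tap1 and Tap2 rose by 2.00 ± 0.33 and 1.46 ± 0.17. Of 3 other Tap1 probe sets, at 0.09 to 0.88, 1 was called. The class II chain H2-Ab1 was not called at 0.58 ± 0.35. Of the 21 genes, 28.6% were called higher and 4.76% lower, beside 10.3% and 22.1% of all genes. With the 4 p50-/-IL10-/- arrays fitted alone 11 of them rose, and without LPS array 2 there were 2 lower genes.

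Surface receptors showed some of the largest decreases. Cxcr4 (gene ID 12767), the receptor for Cxcl12, read 12.35 and 12.38 log2 on the unstimulated arrays and 8.90 and 9.27 on the LPS arrays, and fell by 3.28 ± 0.19 (limma adjusted p 6.91e-07). Cnr2 (gene ID 12802), a cannabinoid receptor of immune cells, fell by 3.40 ± 0.20, from 8.28 and 8.16 to a dim 4.82 and 4.82. Ptger2, a receptor for prostaglandin E2, fell by 2.16 ± 0.21. In the other direction, the formyl peptide receptor Fpr2 rose by 3.43 ± 0.32, Ccrl2 by 3.40 ± 0.11 and Gpr84, a fatty acid receptor, by 2.45 ± 0.22. Of 38 chemokine and G protein-coupled receptors 9 rose, 14 fell and 15 were not called, and 5 rose without LPS array 1 or when tested against a 1.2-fold change. Of that receptor list, 23.7% were called higher and 36.8% lower, beside 10.3% and 22.1% of all genes. Among 32 scavenger, lectin, Fc and complement receptors 5 rose (15.6%) and 9 fell (28.1%), beside the same shares of all genes. At least 2-fold, 3 of them rose and 0 fell. Clec4e, a lectin for mycobacterial lipids, rose by 1.50 ± 0.08. The higher genes of that list numbered 2 without unstimulated array 2 or LPS array 1, and the lower genes 5 without unstimulated array 1 and 4 without LPS array 1. In the list of 23 genes for clearance of apoptotic cells 6 fell. They make 26.1% of the list, near the 22.1% of all genes. Among them the nuclear receptor gene Pparg fell by 1.61 ± 0.08 and Rxra, its partner, fell by 1.70 ± 0.11, while the other probe set of Rxra read -0.24 and was not called. Mertk, a receptor for dying cells, read 10.43 and 10.44 log2 without stimulus and 10.17 and 9.74 with LPS and was not called, at -0.48 ± 0.19.

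**Figure D4:**
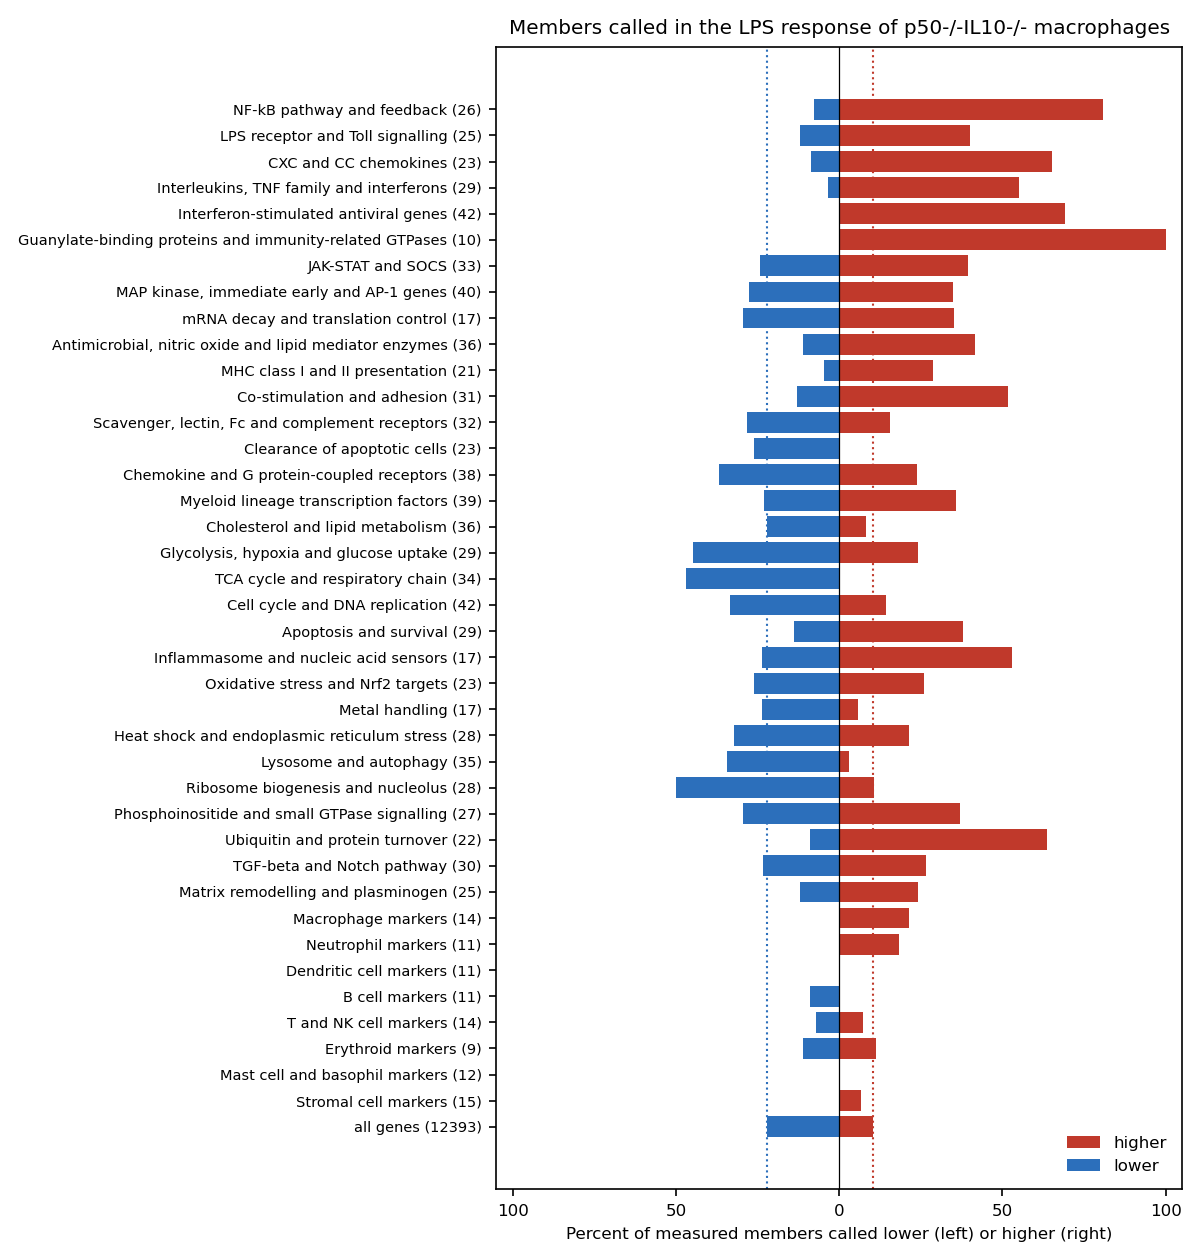
Percent of measured members (number in brackets) of 39 gene lists that were called higher (red, to the right) or lower (blue, to the left) in the LPS response of p50-/-IL10-/- macrophages; the last bar and the dotted lines give the same for all 12393 genes, 10.3% higher and 22.1% lower. The guanylate-binding protein list is wholly red with 10 of 10 members higher, and the respiratory chain list has 16 of 34 lower and 0 higher.

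Most changes in metabolic genes were small. Of 29 glycolysis and hypoxia genes 7 rose (24.1%) and 13 fell (44.8%), beside 10.3% and 22.1% of all genes, with a median of -0.16 log2. Hk2, which traps glucose in the cell, went from 10.11 and 10.19 to 11.38 and 11.43 log2 and rose by 1.26 ± 0.10. Eno2, an enolase, fell by 1.93 ± 0.18, from 6.87 and 7.27 to a dim 5.10 and 5.18. The lower genes of that list numbered 8 without unstimulated array 2 or LPS array 1 and 5 when tested against a 1.2-fold change. Of 34 genes of the citric acid cycle and respiratory chain 16 fell (47.1%, beside 22.1% of all genes), with a median of -0.27 log2. The fallers numbered 11, 7, 10 and 7 without unstimulated array 1, unstimulated array 2, LPS array 1 and LPS array 2, and 1 when tested against a 1.2-fold change. Slc40a1 (ferroportin), the iron exporter, fell by 2.79 ± 0.21, from 10.41 and 9.98 to 7.19 and 7.61 log2. In the cholesterol and lipid list 3 of 36 rose and 8 fell, and the lower genes numbered 2 without unstimulated array 2 and 5 without LPS array 2. These shares of 8.33% and 22.2% are near the 10.3% and 22.1% of all genes. In the heat shock and endoplasmic reticulum stress list, counted below, 21.4% rose and 32.1% fell. In the lysosome and autophagy list these shares were 2.86% and 34.3%. Of 28 genes of ribosome biogenesis 14 fell and 3 rose, with a median of -0.25 log2, and the lower genes numbered 8, 5, 6 and 9 without unstimulated array 1, unstimulated array 2, LPS array 1 and LPS array 2. Of 28 heat shock and endoplasmic reticulum stress genes 6 rose and 9 fell, and 4 fell without unstimulated array 2 and 5 without LPS array 1. Of 35 lysosome and autophagy genes 12 fell, and 6 fell without LPS array 1.

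Genes of division and survival moved in both directions. The cell cycle inhibitor Cdkn1a (p21) read 10.24 and 10.59 without stimulus and 13.30 and 13.28 with LPS, a rise of 2.87 ± 0.10. Gmnn, which limits DNA replication, fell by 2.19 ± 0.17. Skp2, which marks p27 for destruction, fell by 2.65 ± 0.29 to a dim mean, with the LPS arrays at 5.36 and 5.82 log2. The mitotic kinase genes Plk1 and Aurka were not called, at 0.02 ± 0.15 and 0.10 ± 0.13. Of 42 cell cycle genes 6 rose and 14 fell, and 9 fell without LPS array 1. In the cell cycle list 14.3% were called higher and 33.3% lower, beside 10.3% and 22.1% of all genes. Of 29 apoptosis and survival genes 11 rose (37.9%) and 4 fell (13.8%). Cflar, an inhibitor of death receptor signalling, rose by 2.12 ± 0.09 and Birc2, another survival gene, by 2.08 ± 0.10. The lower genes there numbered 2 without unstimulated array 1. In the inflammasome and nucleic acid sensor list 9 of 17 rose and 4 fell, with a median of 0.85 log2. The 4 lower genes make 23.5% of the list, near the 22.1% of all genes, while the 9 higher make 52.9% against 10.3%. Nlrp3, an inflammasome sensor, rose by 2.19 ± 0.15, Casp4, which detects LPS inside cells, by 2.05 ± 0.22 and Aim2, a sensor of DNA, by 1.62 ± 0.12 from a dim mean of readings at 5.60 and 5.29 log2. The lower genes numbered 2 without unstimulated array 1 or LPS array 2.

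Signalling, turnover and matrix genes supplied other large changes. Of 22 ubiquitin genes 14 rose (63.6%) and 2 fell (9.09%), beside 10.3% and 22.1% of all genes. Usp18, which curbs interferon signalling, rose by 3.21 ± 0.57. Rab11fip5, an adaptor of vesicle traffic, fell by 2.94 ± 0.18, and Arhgef3, a guanine nucleotide exchange factor, rose by 2.96 ± 0.13. The collagenase gene Mmp13 rose by 3.12 ± 0.29. Thbd (thrombomodulin), an anticoagulant receptor, fell by 2.49 ± 0.19 to a dim mean, with the LPS arrays at 5.62 and 5.22 log2. Enc1 (gene ID 13803), an actin-binding protein, read 11.18 and 11.29 without stimulus and 8.05 and 7.98 with LPS, and fell by 3.22 ± 0.09 (limma adjusted p 1.43e-08). Both its groups were tight and far apart on this probe set. Its 2 other probe sets were also called lower, at -2.63 and -0.36, so the size of the fall depends on the probe set. Cipc, a regulator of the circadian clock, fell by 2.75 ± 0.19, the lysosomal GTPase gene Rab7b fell by 2.63 ± 0.12, the kinase gene Mknk2 fell by 2.63 ± 0.16 and the glucocorticoid-induced Tsc22d3 fell by 2.56 ± 0.13. Of the 2 other probe sets of Tsc22d3, at -2.03 and -0.25, 1 was called. Eepd1 fell by 2.53 ± 0.22 and Sbk1 fell by 2.60 ± 0.19, the latter to a dim 4.46 and 4.75 log2.

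The response was then set against that of IL10-/- cells, which keep p50 and share no arrays with it. In IL10-/- cells 3078 genes were called (24.8%): 962 rose (7.76%), 328 of them at least 2-fold (2.65%), and 2116 fell (17.1%), 242 of them at least 2-fold (1.95%). Of the 451 genes raised at least 2-fold without p50, 394 were also called higher in IL10-/- cells, and of the 366 lowered at least 2-fold, 342 were also called lower. The difference of the responses was called for 147 of the 12393 genes (1.19%), of which 91 (0.734%) had a more positive response without p50 and 56 (0.452%) a more negative one. At least 2-fold differences numbered 51 (0.412%) and 28 (0.226%). These counts were sensitive to single arrays. The more positive genes numbered 16 and 20 without unstimulated array 1 or 2 of p50-/-IL10-/- cells, 19 without LPS array 1 of these cells, 50 and 29 without unstimulated array 1 or 2 of IL10-/- cells and 57 without LPS array 2 of IL10-/- cells. The more negative genes numbered 16, 23 and 20 without the same arrays of p50-/-IL10-/- cells, 27 without unstimulated array 2 of IL10-/- cells and 135 without LPS array 1 of IL10-/- cells.

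**Figure D5:**
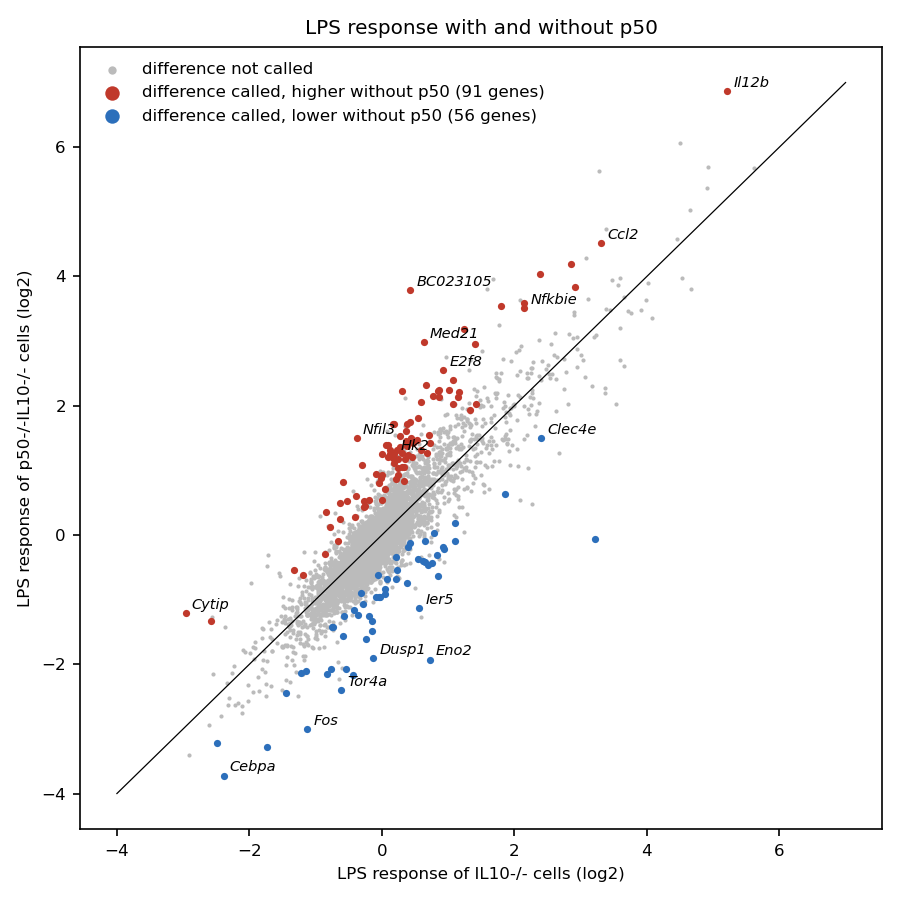
LPS response of p50-/-IL10-/- cells (log2, vertical axis) against that of IL10-/- cells (log2, horizontal axis) for 12393 genes; the line marks equal responses, and coloured points are the 91 genes with a more positive (red) and the 56 with a more negative (blue) response without p50. Most genes lie along the line, and Dusp1, Ier5 and Eno2 were called lower on the vertical axis and not on the horizontal one.

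Among genes with a more negative response without p50, several are early response regulators or enzymes. The genes of this paragraph were called with any 1 of the 8 arrays left out. Dusp1 was not called in IL10-/- cells, which read 10.12 and 10.09 log2 without stimulus and 10.11 and 9.83 with LPS, and the difference of its responses was -1.77 ± 0.17 (limma adjusted p 0.00151). Ier5, a stress-induced gene, read 9.30 and 9.52 without stimulus and 8.35 and 8.21 with LPS without p50, and fell by 1.14 ± 0.10. In IL10-/- cells it went from 9.34 and 9.11 to 9.83 and 9.73, a rise of 0.56 ± 0.10, and the difference was -1.70 ± 0.15. Its 2 other probe sets, at -0.37 and -0.34 without p50, were not called there, and their genotype differences of -0.86 and -0.74 were not called either. Eno2 fell without p50 and rose by 0.72 ± 0.18 in IL10-/- cells, a difference of -2.65 ± 0.25. Pfkl, the liver-type phosphofructokinase, differed by -0.92 ± 0.12, and by -0.73 on its other probe set, which was also called. Tor4a, a torsin ATPase, fell by 2.40 ± 0.14 without p50 and fell by 0.61 ± 0.14 in IL10-/- cells, a difference of -1.79 ± 0.19. Clec4e rose in both and by less without p50, with a difference of -0.91 ± 0.12 and unstimulated levels of 11.63 and 11.77 without p50 and 10.57 and 10.70 with it. Marco, a scavenger receptor, went from 7.54 and 7.57 to 7.50 and 7.50 log2 without p50 and was not called there. In IL10-/- cells it went from 7.65 and 6.45 to 9.96 and 10.58 and rose by 3.22 ± 0.31, a difference of -3.28 ± 0.44.

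Among genes with a more positive response, Nfkbie had a difference of 1.37 ± 0.18 (limma adjusted p 0.00888). Its IL10-/- arrays read 7.96 and 7.85 log2 without stimulus and 10.11 and 9.99 with LPS, so the genotypes lay apart before LPS and closer together after it. Med21, a Mediator subunit, rose by 2.99 ± 0.17 without p50 and by 0.63 ± 0.17 in IL10-/- cells, a difference of 2.35 ± 0.23. Nfil3, a repressor that acts in the clock and in lymphoid development, rose by 1.49 ± 0.14 without p50 and was not called in IL10-/- cells, at -0.38 ± 0.14, a difference of 1.87 ± 0.20. Hk2 read 0.18 ± 0.10 in IL10-/- cells, a difference of 1.08 ± 0.14. Apaf1, the scaffold of the apoptosome, rose by 1.50 ± 0.10 and by 0.45 ± 0.10, a difference of 1.06 ± 0.14. These were also called with any 1 of the 8 arrays left out.

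Several of the strongest responders were called in the difference but lost the call in some of the 8 fits that leave out 1 array. Il12b, with a difference of 1.66 ± 0.30, kept it in 3 of 8, with an adjusted p up to 0.138 without LPS array 1 of p50-/-IL10-/- cells. Cebpa, at -1.33 ± 0.25, kept it in 2 of 8, with an adjusted p up to 0.155 without unstimulated array 2 of these cells. Cxcr4, at -1.56 ± 0.26, kept it in 2 of 8, up to 0.101 without the same array. Fos, at -1.87 ± 0.32, kept it in 4 of 8, up to 0.116 without LPS array 1 of these cells. Other large responders were not called: the difference was 0.07 ± 0.51 for Cxcl10, 0.39 ± 0.15 for Cxcl2, -0.43 ± 0.16 for Tnf, 2.36 ± 0.62 for Cxcl9 and 2.29 ± 0.53 for Socs1. A difference that was not called does not show that the responses were equal.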

How the data were processed

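RNA of the 12 cultures was labelled and read on Affymetrix arrays. The authors deposited log2 values made with RMA, and limma is named beside it, per the submitters' processing notes; their versions are not given in the sources used here. RMA corrects background, sets all arrays to 1 distribution and summarises probes. Of 22690 probe sets, 20380 had 1 gene symbol and gave 12393 genes. limma 3.58.1 in R 4.3.3 was fitted to all 12 arrays with a mean per group (6 residual degrees of freedom, no replicate block) and tested on simulated data. Tests were two-sided, with Benjamini-Hochberg adjusted p under 0.05 over all genes. Genes named are the 12 largest called increases and decreases with both means at or above 5.60 log2, the 6 and 4 largest from or to a dim mean, members of the lists with the largest change or a described role, and the 8 largest genotype differences each way. Members and lists were chosen with earlier results of these data known. Alternatives were other sample sets, left-out arrays, a replicate block, centring, a dim filter, other probe set rules, another variance prior and a 1.2-fold test. Arrays with IL-10 entered the spread, the dim limit and the choice of probe set, and no comparison. Other probe sets of named genes were looked at after seeing the data.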

Additional observations from a re-analysis of the deposited data

Results flagged for a closer look

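The LPS response differed between the genotypes, by limma over the 12393 genes, for the genes given here, each as the response of p50-/-IL10-/- cells minus that of IL10-/- cells in log2. The calls of Marco (-3.28), Eno2 (-2.65), Tor4a (-1.79), Dusp1 (-1.77), Ier5 (-1.70), Pfkl (-0.92) and Clec4e (-0.91) were kept with any 1 of the 8 arrays left out. So were those of Med21 (2.35), Nfil3 (1.87), E2f8 (1.62), Nfkbie (1.37), Hk2 (1.08) and Apaf1 (1.06).

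The other calls were lost without at least 1 array, and the highest adjusted p and the array whose absence gave it follow. Without unstimulated array 1 of p50-/-IL10-/- cells these were Dusp6 (-1.30, 0.0517), Incenp (-1.53, 0.0516), a mitotic scaffold, Gem (1.95, 0.0995), a small GTPase, Gfi1 (1.33, 0.197) and Ifnb1 (1.48, 0.117). Without unstimulated array 2 of these cells they were Cxcr4 (-1.56, 0.101), Ptger2 (-1.73, 0.112), Cebpa (-1.33, 0.155), Enc1 (-0.74, 0.136), Il1a (1.45, 0.146), Gbp2b (1.93, 0.0766), Cytip (1.75, 0.0882), Gja1 (1.74, 0.108), a gap junction protein, and BC023105 (3.37, 0.0639). Without LPS array 1 of these cells they were Fos (-1.87, 0.116), Il12b (1.66, 0.138), Il10 (1.39, 0.0878), Ccl2 (1.22, 0.163) and Gca (1.64, 0.0568). Without unstimulated array 2 of IL10-/- cells it was Il15 (0.93, 0.137). Of the other probe sets of these genes, those of Cytip, Il12b, Gca, Clec4e and Pfkl were also called in the difference and 1 of 2 of Incenp was. Those of Apaf1 (1), Ier5 (2), Enc1 (2) and Gja1 (5) were not, at 1.13 for Apaf1, -0.86 and -0.74 for Ier5, -0.55 and -0.03 for Enc1 and 0.13 to 1.61 for Gja1. The cause of these differences was not tested.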

How the results depend on the processing

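In the LPS response without p50, the counts of genes changed at least 2-fold stayed within 1.5 times their values in every alternative run: 381 to 486 higher and 296 to 426 lower. Tested against a 1.2-fold change, 714 genes rose and 1114 fell, all of them among the 1273 and 2739 called against 0. This nesting follows from a stricter test on the same fit and is no check of the calls. Leaving out 1 array gave 929 to 1174 higher and 1809 to 2176 lower, and 409 to 486 and 329 to 426 at least 2-fold. The genotype difference was less stable: it held 46 more positive and 32 more negative genes with only the 8 arrays compared, 20 and 17 against 1.2-fold, and 16 to 120 and 16 to 135 without 1 array. The cause was not tested. With the replicate number as a block 1290 genes rose, 2786 fell, and 89 and 65 differed between genotypes. With the block within genotype these were 1335, 2859, 121 and 78. The deviations of same-numbered arrays of the 2 p50-/-IL10-/- groups correlated at 0.28, those among the 4 groups compared from 0.169 to 0.398, and over all pairs of groups from -0.492 to 0.595; the labels do not say whether same-numbered arrays share a mouse or a day. Centring array medians moved the median of all genes from -0.01 to 0.03 log2. The number of arrays limits the precision, and dim signals limit the size of changes that start or end there.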

Other observations

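Some of the largest changes without p50 were in genes of no list, and these were chosen after their values were seen. Batf2, a factor induced by interferon, read 7.92 and 7.56 log2 without stimulus and 11.17 and 10.82 with LPS, a rise of 3.26 ± 0.34. Lpar1, a receptor for lysophosphatidic acid, rose by 2.69 ± 0.23, Helz2, a transcriptional co-activator, by 2.72 ± 0.31 and the oxidised lipoprotein receptor gene Olr1 by 2.71 ± 0.25. E2f8, a repressor of the cell cycle, read 6.38 and 6.29 without stimulus and 8.94 and 8.83 with LPS, a rise of 2.55 ± 0.11. Its groups were tight, and only genes whose groups did not overlap were eligible for this section. Src, a tyrosine kinase, rose by 2.43 ± 0.15.

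Among decreases, Cd300lf, an inhibitory receptor of myeloid cells, fell by 2.43 ± 0.09 and Flcn, a regulator of nutrient sensing, fell by 2.28 ± 0.20, with 1 of its 2 other probe sets called among -2.25 and -0.38. Mnt, a repressor that competes with Myc for its partner, read 9.28 and 9.41 without stimulus and 6.73 and 7.35 with LPS, and fell by 2.31 ± 0.17, while its other probe set read -0.02 and was not called. Dbp, an output gene of the circadian clock, fell by 2.16 ± 0.24.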
